A study of Mus musculus with 144 samples.

Results

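The homeostatic signature of microglia, the resident macrophages of the nervous system, is represented here by 9 genes: P2ry12, P2ry13, Gpr34, Cx3cr1, Tmem119, Siglech, Fcrls, Selplg and Sparc. They were taken by gene symbol from a table of 55364 genes, and each symbol had a row. Expression was measured in 144 single cells sorted by FACS from the retinas of Iba1-EGFP mice, a strain in which a fluorescent protein marks cells that use the Iba1 (Aif1) gene. 48 cells came from mice given the vehicle PBS at an age of 10 to 14 weeks, 48 from mice given 1 mg/kg ripasudil at 14 weeks and 48 from mice given 10 mg/kg ripasudil at 12 weeks. Ripasudil inhibits the kinase ROCK, which acts on the actin cytoskeleton. Iba1 is also made by macrophages other than microglia, so the strain alone does not separate these cell types. The series title names optic nerve injury, and the labels of the cells do not say which eyes were injured.

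The 3 plates each carried 16 cells of every group. Cells with at least 1000 genes at 1 FPKM or more (fragments per kilobase of gene, scaled to the mapped fragments of each cell) were kept, which left 46 PBS, 47 low-dose and 47 high-dose cells, 140 in all. No animal is named for any cell. Each group was therefore treated as 1 sample, no p-value is given, and SDs and 95% Clopper-Pearson intervals describe spread and counting error among cells only. Dose and age cannot be told apart in this design.

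Microglia in healthy tissue survey their surroundings with motile processes and keep a set of surface receptors that other macrophages largely lack. ADP released by damaged cells is sensed through purinergic receptors, and the neuronal chemokine fractalkine through Cx3cr1. The programme depends on the transcription factors PU.1 (Spi1) and Sall1 and on TGF-beta signals, and many of its genes are lowered when microglia become activated or are taken out of the tissue.

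Markers of the labelled cell type were present throughout: all 140 kept cells had at least 3 of 9 microglia markers outside the 9 genes at 1 FPKM or more, and Csf1r, C1qa and C1qb were at that level in 100% of them. At least 3 of 9 border macrophage markers were present in 5 PBS, 5 low-dose and 3 high-dose cells, and at least 3 of 10 rod photoreceptor markers in 6 PBS, 7 low-dose and 12 high-dose cells. At least 3 of 10 Mueller glia markers were present in 24 cells (7 PBS, 8 low-dose and 9 high-dose), where the list holds Apoe and Glul, present in 92.9% and 58.6% of all cells, while Aqp4 was in 0 cells and Rlbp1 in 2. At least 3 of 8 neutrophil markers were present in 14 cells and at least 3 of 8 plasmacytoid dendritic cell markers in 10 cells (1 PBS, 4 low-dose and 5 high-dose). Plasmacytoid dendritic cells are also known to make Siglech. Of their markers Bst2 was in 82.1% of all cells, Klk1 in 0 cells and Ccr9 in 2. The monocyte list reached that count in 4 cells, the endothelial and the pericyte lists in 1 cell each, and the astrocyte and the T or NK cell lists in 0. Read totals recovered from the values ran between 30204 and 4668740 per cell, with medians of 1626280 with PBS, 1801900 with 1 mg/kg and 1423330 with 10 mg/kg. The median number of genes at 1 FPKM or more was 3143 with PBS, 2418 with 1 mg/kg and 2264 with 10 mg/kg. Spearman's rho between a gene's level and the number of detected genes, across the 140 cells of all groups, was 0.30 to 0.47 for 8 of the 9 genes and 0.089 for Sparc.

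Several of the 9 genes lie beside each other or within other genes on the GRCm38 mouse genome. P2ry13 (ENSMUSG00000036362, chr3:59207892-59210882) and P2ry12 (ENSMUSG00000036353, chr3:59216272-59262871) are neighbours on the minus strand with 5389 bases and 0 annotated genes wholly between them. Both lie inside Med12l on the opposite strand, and exons of P2ry12 and Med12l overlap. Med12l reached 1 FPKM in 23.6% of cells, and since counting by strand is not stated, reads in the shared part cannot be told apart. Tmem119 (ENSMUSG00000054675, chr5:113793729-113800516) and Selplg (ENSMUSG00000048163, chr5:113818536-113832644), both on the minus strand, are 18019 bases apart with 1 annotated pseudogene between them. Gpr34 (ENSMUSG00000040229, chrX:13632089-13640858, plus strand) lies within Cask, which reached 1 FPKM in 7.86% of cells, without sharing an exon. Siglech (ENSMUSG00000051504) is at chr7:55768178-55778925 on the plus strand. Fcrls (ENSMUSG00000015852) is at chr3:87250758-87263738, Cx3cr1 (ENSMUSG00000052336) at chr9:119901616-120069879 and Sparc (ENSMUSG00000018593) at chr11:55394500-55423183, all 3 on the minus strand. Cx3cr1 as annotated overlaps several other genes, among them Wdr48 and Gorasp1, and its exons overlap those of Gm33858. All 9 are annotated as protein-coding.

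Promoter sequence was examined because PU.1, whose binding sites centre on GGAA, is a main factor of this programme. RefSeq promoters on GRCm38.p6 were at hand for 6 of the 9 genes (P2ry12, P2ry13, Cx3cr1, Siglech, Fcrls and Sparc). In the 250 bases before the start, GAGGAA or GGAAGT on either strand was found in 4 of these 6, against 36.7% of 32851 promoters of the same length. GAGGAA alone was found in 2 of 6 (23.3% of all promoters) and GGAAGT alone in 3 of 6 (19.7%). The 2 words share letters and can overlap. The Smad word CAGAC, of the TGF-beta pathway, was in 5 of 6 (42.2% of all promoters), and the AP-1 word TGANTCA in 0 of 6 (6.75%). These are matches of letters in a window, not sites shown to be bound. The upstream window of P2ry13 is shown whole because no annotated exon overlaps it (chr3:59210883-59211132, minus strand, 5′ to 3′), with GAGGAA, whose first base lies 48 bases before the start, in capitals.
P2ry13: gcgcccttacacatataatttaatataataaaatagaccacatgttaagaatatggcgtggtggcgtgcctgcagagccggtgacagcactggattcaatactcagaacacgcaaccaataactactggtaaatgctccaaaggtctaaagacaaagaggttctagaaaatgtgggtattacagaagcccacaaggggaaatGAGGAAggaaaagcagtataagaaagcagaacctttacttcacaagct
Starts are those of RefSeq. The RefSeq start of Fcrls lies inside the gene as placed above, so its window overlaps an annotated Fcrls exon. The window of P2ry12 overlaps an exon of Med12l, and those of Siglech, Cx3cr1 and Sparc each overlap an exon of their own gene. The other matches are shown with 12 bases on each side, on the strand of the gene, so that the words can be compared between genes. P2ry12 (chr3:59263019-59263048, minus strand) has GGAAGT 51 bases before its start. Fcrls has GAGGAA (chr3:87263651-87263680, minus strand) 144 bases and the reverse complement of GGAAGT (chr3:87263582-87263611, minus strand) 75 bases before its start. Siglech (chr7:55768016-55768045, plus strand) has the reverse complement of GGAAGT 156 bases before its start.
P2ry12: agctaacaagaaGGAAGTtccccagtgaca
Fcrls, first match: caagtctgtaaaGAGGAAggacgtttgctt
Fcrls, second match: gacaactttgccACTTCCtttttttcctat
Siglech: tgtgcaacaagcACTTCCcagtctgagcca

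Among the purinergic and related receptors, P2ry12, the ADP receptor that steers microglial processes to injury, was at 1 FPKM or more in 109 of 140 cells (77.9%, interval 70.1 to 84.4%). Its FPKM ran from 0.110 to 1768 with a median of 26.2 in PBS cells, from 0.131 to 1068 with a median of 115 in low-dose cells and from 0 to 2333 with a median of 4.36 in high-dose cells. The groups overlapped over almost their whole range. 26 of 46 PBS cells, 28 of 47 low-dose cells and 19 of 47 high-dose cells were at 10 FPKM or more. On the log2(FPKM + 1) scale its level averaged 5.02 ± 3.48 with PBS, 5.29 ± 3.66 with 1 mg/kg and 3.97 ± 3.70 with 10 mg/kg (SD over cells). P2ry13, the second ADP receptor, had a median of 20.4 FPKM with PBS, 17.4 FPKM with 1 mg/kg and 2.58 FPKM with 10 mg/kg, with a lowest value of 0 and highest values of 1019, 1364 and 1791 FPKM in the same order. Its level averaged 4.73 ± 3.63 with PBS, 4.87 ± 3.76 with 1 mg/kg and 4.07 ± 3.85 with 10 mg/kg on that scale. Gpr34, a receptor for lysophosphatidylserine, had medians of 13.7, 102 and 3.42 FPKM in PBS, low-dose and high-dose cells, and averaged 4.81 ± 3.51, 5.40 ± 4.08 and 4.25 ± 3.86 on the log2 scale. Its lowest value was 0 in each group, and its highest was 1611 FPKM with PBS, 1816 FPKM with 1 mg/kg and 13803 FPKM with 10 mg/kg.

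Cx3cr1, the fractalkine receptor, was one of the most widely and strongly expressed of the 9 genes. It reached 1 FPKM in 134 of 140 cells (95.7%, interval 90.9 to 98.4%) and had medians of 313, 211 and 311 FPKM in PBS, low-dose and high-dose cells. Its lowest values were 0.458, 0.551 and 0.874 FPKM and its highest 3185, 1240 and 2746 FPKM, so the groups overlapped. Its level on the log2 scale averaged 7.02 ± 3.01 with PBS, 6.27 ± 3.36 with 1 mg/kg and 6.86 ± 3.19 with 10 mg/kg. Tmem119, a membrane protein widely used as a microglia marker, had medians of 83.2, 236 and 38.6 FPKM in the same order and reached 1 FPKM in 124 of 140 cells (88.6%). Its level averaged 5.74 ± 3.44, 5.85 ± 3.998 and 5.45 ± 3.90 on the log2 scale.

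Siglech, a sialic acid-binding lectin that signals through the adaptor DAP12, reached 1 FPKM in 116 of 140 cells (82.9%), with medians of 73.8, 58.2 and 6.26 FPKM in PBS, low-dose and high-dose cells. On the log2 scale its level averaged 4.998 ± 3.48, 5.29 ± 3.63 and 4.54 ± 3.61. Fcrls, a scavenger receptor-like member of the Fc receptor-like family, had the lowest level of the 9 genes. It reached 1 FPKM in 83 of 140 cells (59.3%, interval 50.7 to 67.5%), with medians of 5.76 FPKM with PBS, 1.07 FPKM with 1 mg/kg and 1.55 FPKM with 10 mg/kg. Its lowest value was 0 in every group and its highest 1505, 2065 and 1500 FPKM, and its level averaged 4.34 ± 3.77, 3.03 ± 3.62 and 3.26 ± 3.65 on the log2 scale. It was at 10 FPKM or more in 21 of 46 PBS, 14 of 47 low-dose and 15 of 47 high-dose cells. Most cells of every group thus lay below 10 FPKM, and the ranges overlapped.

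Selplg, the selectin ligand PSGL-1, reached 1 FPKM in 128 of 140 cells (91.4%), with medians of 121, 201 and 62.0 FPKM in PBS, low-dose and high-dose cells and mean log2 levels of 5.75 ± 3.42, 5.74 ± 3.75 and 5.42 ± 3.47. Sparc, a secreted protein that binds matrix and that adult microglia are known to make, had the highest level. It reached 1 FPKM in 135 of 140 cells (96.4%, interval 91.9 to 98.8%) and had medians of 583, 370 and 354 FPKM in the same order. Its lowest values were 0.779, 0.309 and 0.326 FPKM and its highest 20351, 2009 and 4417 FPKM. Its level averaged 7.71 ± 3.48 with PBS, 6.72 ± 3.50 with 1 mg/kg and 6.91 ± 3.86 with 10 mg/kg on the log2 scale. The number of cells at 10 FPKM or more was 35 of 46 with PBS, 32 of 47 with 1 mg/kg and 34 of 47 with 10 mg/kg. A single PBS cell on plate 1 supplied 38.95% of the PBS sum of Sparc, and the PBS mean was 1136 FPKM with it and 709 FPKM without it.

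**Figure D1:**
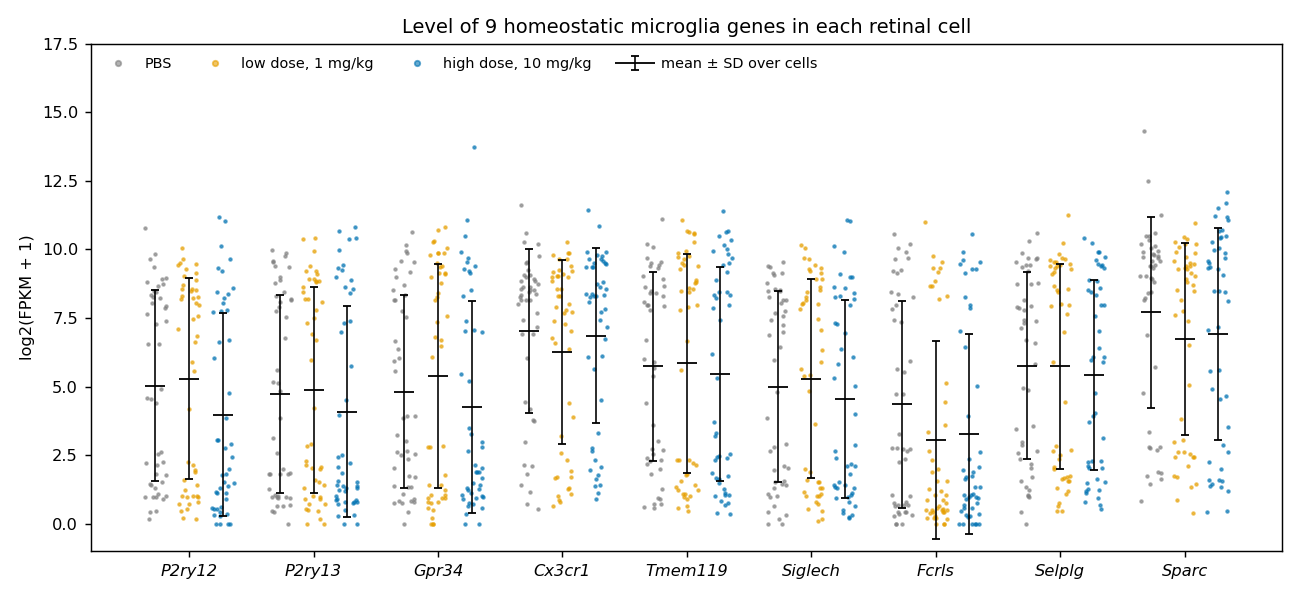
Level of each gene, log2(FPKM + 1) on the vertical axis, in each of the 46 PBS, 47 low-dose and 47 high-dose cells (points), with the mean and SD over cells (bars). For every gene the 3 groups cover nearly the same range, with cells gathered near the bottom and between about 100 FPKM and the top, and Fcrls has the most cells near the bottom.

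Over all 140 cells the mean log2(FPKM + 1) level, which is per length and can be set side by side between genes, was 7.11 for Sparc, 6.72 for Cx3cr1, 5.68 for Tmem119, 5.64 for Selplg, 4.94 for Siglech, 4.82 for Gpr34, 4.76 for P2ry12, 4.56 for P2ry13 and 3.54 for Fcrls. Each neighbouring pair in this order differed by less than 1 SD over cells, the SDs being 3.18 to 3.83. Levels also varied between plates of the same group. The mean log2 level of Sparc in PBS cells was 6.73 on plate 1, 6.84 on plate 2 and 9.85 on plate 3, a range of 3.12. The corresponding range for Cx3cr1 in PBS cells was 2.87, and that for Tmem119 in low-dose cells 2.83. The smallest was 0.49, for P2ry13 in PBS cells.

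Each of the 9 genes split the cells into a low and a high set with few in between. Between 10 and 17 of 140 cells had an intermediate level of 10 to below 100 FPKM. P2ry12 was below 10 FPKM in 67 cells, with a median of 1.10 FPKM among them, and at 10 FPKM or more in 73 cells, with a median of 307 FPKM. Sparc was below 10 FPKM in 39 cells (median 2.58 FPKM) and at or above it in 101 (median 691 FPKM). Fcrls was below 10 FPKM in 90 cells (median 0.609 FPKM) and at or above it in 50 (median 406 FPKM). What the values below 10 FPKM stand for was not tested. The share of cells with a gene therefore depended on the threshold: for P2ry12 it was 97.1% above 0 FPKM, 77.9% at 1 FPKM or more, 52.1% at 10 FPKM or more and 42.1% at 100 FPKM or more. Thinned to 300000 reads per cell, the share at 1 FPKM or more of P2ry12 was 71.3% of 44 high-dose cells and 86.4% of 41 PBS cells, beside 72.3% of 47 high-dose and 84.8% of 46 PBS cells before thinning.

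**Figure D2:**
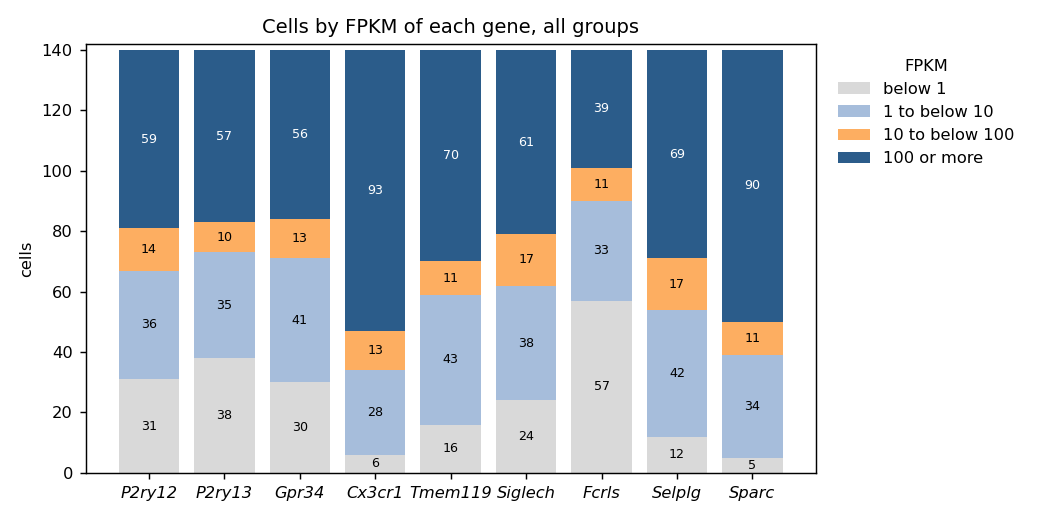
Number of cells, of 140, in 4 bands of FPKM for each gene. The band of 10 to below 100 FPKM holds 10 to 17 cells for each gene, fewer than the band of 1 to below 10 FPKM and the band of 100 FPKM or more, and the band of 100 FPKM or more ranges from 39 cells for Fcrls to 93 for Cx3cr1.

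The high states of the 9 genes were unevenly combined across cells. At the threshold of 10 FPKM, 24 of 140 cells had all 9 genes and 11 had 0. At least 8 of the 9 genes were at 10 FPKM or more in 21 of 46 PBS cells (45.7%, interval 30.9 to 61.0%), in 17 of 47 low-dose cells (36.2%, interval 22.7 to 51.5%) and in 9 of 47 high-dose cells (19.1%, interval 9.15 to 33.3%). By plate, the cells with at least 8 genes numbered 6, 9 and 6 in PBS, 3, 7 and 7 in the low dose and 1, 5 and 3 in the high dose, so the high dose had the smallest number on each plate. The share with 3 genes or fewer differed less, at 15 of 46 PBS, 16 of 47 low-dose and 17 of 47 high-dose cells. In high-dose cells the commonest number was instead 4 genes, found in 10 cells, against 4 cells in PBS.

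The number of detected genes moved with this measure. The median number of all genes at 10 FPKM or more was 1726 with PBS, 1446 with 1 mg/kg and 1257 with 10 mg/kg. On plates 1 to 3 it was 1388.5, 2609 and 1581 with PBS and 949, 1551 and 1088.5 with 10 mg/kg. With 1 mg/kg it was 853, 2026 and 1512.5. Across the 140 cells, which share plates and groups, Spearman's rho between the number of the 9 genes at 10 FPKM or more and all detected genes was 0.68, and with reads it was 0.38. Cells with at least 8 of the 9 genes had a median of 3860 detected genes in the high dose, 4656 in the low dose and 4787 in PBS. The difference in the share of such cells, high dose minus PBS, was -26.5 percentage points, and -9.35 points with detected genes and plate as terms. The mean number of the 9 genes at 10 FPKM or more differed by -0.86, high dose minus PBS, and by 0.33 with those terms. Among cells with at least 2000 detected genes that mean was 6.08 in high-dose and 6.26 in PBS cells. The share with at least 8 genes was there 34.6% of 26 high-dose cells and 55.3% of 38 PBS cells. Without the cells carrying rod markers it was 8 of 35 high-dose cells and 18 of 40 PBS cells, and without those carrying border macrophage markers 18.2% of 44 high-dose cells and 48.8% of 41 PBS cells. At the lower threshold of 1 FPKM the mean number of the 9 genes per cell was 7.63 ± 1.87 with PBS, 7.32 ± 1.63 with 1 mg/kg and 7.36 ± 1.74 with 10 mg/kg, differences smaller than 1 SD.

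**Figure D3:**
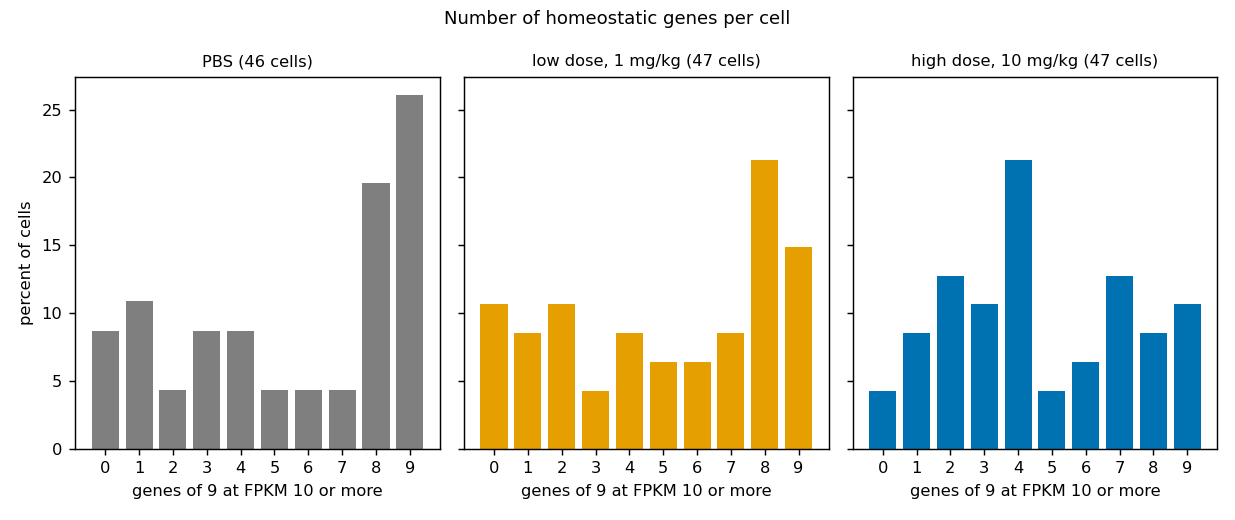
Percent of cells (vertical axis) by the number of the 9 genes at 10 FPKM or more (horizontal axis) in PBS, low-dose and high-dose cells. Cells with 8 or 9 genes make up 45.7% of PBS, 36.2% of low-dose and 19.1% of high-dose cells, and the tallest bar of the high dose is at 4 genes.

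High-dose cells were set against PBS cells to ask how the larger ripasudil dose moved the signature. A gene was called where the difference of mean log2(FPKM + 1) was -1 or less, or 1 or more, and had the same sign on all 3 plates. Of 4806 genes at 1 FPKM or more in at least 25% of the cells of any group, 13.4% were called lower and 0.0624% called higher. Of the 9 homeostatic genes, 1 was called lower, Fcrls, which lies near that background, and 0 were called higher. All 9 differences were below 0, as were 81.4% of those of all 4806 genes. Their median was -0.57, beside -0.43 over all genes. Fcrls averaged 3.26 at the high dose and 4.34 with PBS and so differed by -1.09, with -0.73, -1.78 and -0.62 on plates 1 to 3, and relative to the median of all genes it was -0.66. This difference was 0.24 with detected genes and plate as terms and 0.068 where only cells with 2000 or more detected genes were used, so its direction did not hold. Without plate 2 it was -0.72, and without the cells carrying rod markers -0.44. P2ry12 averaged 3.97 at the high dose and 5.02 with PBS and so differed by -1.05, but plate 1 gave 0.072 and plates 2 and 3 gave -1.63 and -1.78. Sparc was lower on each plate, with differences of -0.76, -0.71 and -1.27, and the pooled difference of -0.80 did not reach the threshold. The smallest pooled differences were those of Cx3cr1, at -0.16, Tmem119, at -0.30, and Selplg, at -0.33, but their plates differed in sign. Plates 1 to 3 gave 0.58, 0.26 and -1.57 for Cx3cr1, 0.37, -0.23 and -1.12 for Tmem119, and -0.39, 0.24 and -0.87 for Selplg. With detected genes and plate as terms these 3 had the largest differences of the 9, at 0.56, 0.52 and 0.69.

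The low dose was set against PBS in the same way. Over all genes 4.93% were called lower and 0.52% higher. Fcrls was again the single gene of the 9 called lower, and 0 were called higher. It averaged 3.03 at the low dose and 4.34 with PBS and so differed by -1.31, with -1.45, -2.23 and -0.15 on the 3 plates, was -1.14 relative to the median of all genes, and was -0.65 with detected genes and plate as terms. Without plate 2 the difference was -0.83. The 2 comparisons share the PBS cells. Of the 9 genes 4 were below 0, and the median of 0.11 stood beside -0.18 over all genes. Gpr34 was higher on each plate, by 0.52, 0.33 and 0.87, with a pooled difference of 0.58 that did not reach the threshold. Sparc averaged 6.72 in low-dose and 7.71 in PBS cells, and its difference of -0.99 came from -1.44 on plate 1, 1.06 on plate 2 and -2.96 on plate 3.

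High-dose cells set against low-dose cells gave 5.66% of all genes called lower and 0.479% called higher. Gpr34 was the single gene of the 9 called lower, and 0 were called higher. It averaged 4.25 at the high dose and 5.40 at the low dose and so differed by -1.15, with -0.83, -1.84 and -0.76 on the 3 plates, -0.91 relative to the median of all genes, and -0.86 with detected genes and plate as terms. Without plate 2 it was -0.79, and with a minimum of 2000 detected genes -2.29. The log2 ratio of mean FPKM for Gpr34 was 0.47, of opposite sign: a single high-dose cell on plate 1, at 13803 FPKM, held 58.2% of the high-dose sum, and the high-dose mean was 505 FPKM with it and 216 FPKM without it. P2ry12 differed by -1.32, but by 0.14 on plate 1, -3.35 on plate 2 and -0.65 on plate 3. Cx3cr1 was higher in the high dose on each plate, by 1.156, 0.44 and 0.21, with a pooled difference of 0.59 that did not reach the threshold.

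**Figure D4:**
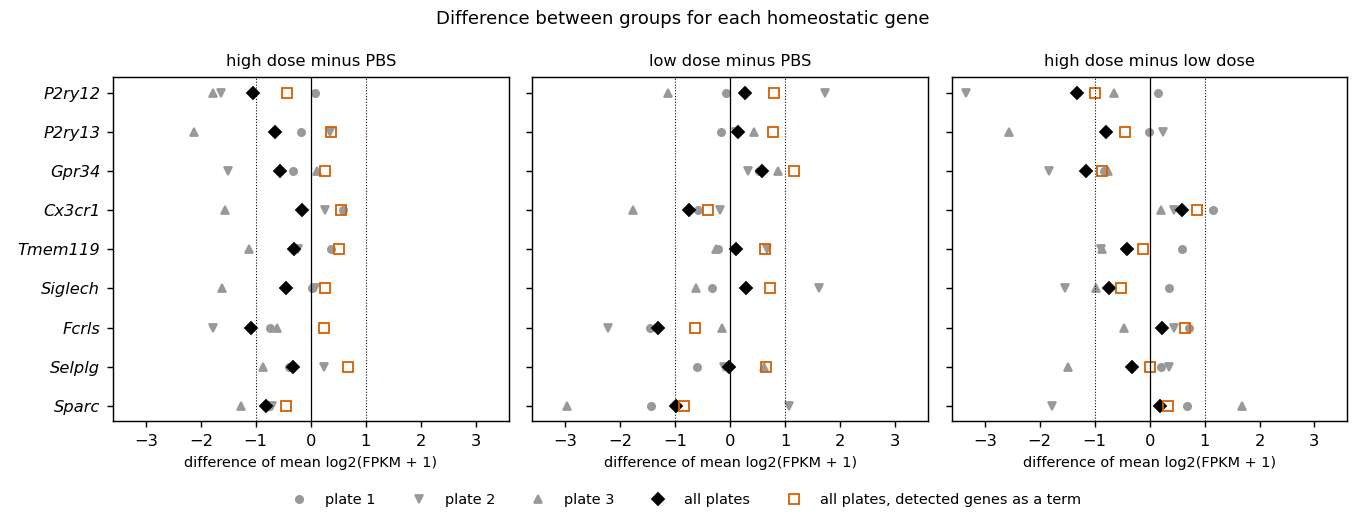
Difference of mean log2(FPKM + 1) (horizontal axis) for each gene in 3 comparisons: on each plate, over all plates, and over all plates with detected genes and plate as terms. Dotted lines mark -1 and 1. In the high dose minus PBS all 9 pooled differences lie below 0, and for every gene except Fcrls and Sparc the 3 plates lie on both sides of 0.

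Other genes of the microglial programme, from lists, gave the setting for these differences. Some genes are on more than 1 list, among them Jun, on the lineage factor and immediate early lists, so counts of different lists are not independent. Of 22 further homeostatic genes compared, 17 were below 0 in the high dose minus PBS (median -0.58) and 4 were called lower, beside 13.4% of all genes. Rhob, a small GTPase, averaged 2.03 in high-dose and 3.17 in PBS cells and was called lower, as was Lpcat2, a lipid-modifying enzyme, at 4.90 in high-dose and 5.95 in PBS cells. The abundant Cst3, a protease inhibitor, averaged 13.58 in high-dose and 12.90 in PBS cells and was not called. Of 11 lineage transcription factors compared, all were below 0 (median -0.56) and 3 were called lower. Spi1, which encodes PU.1, averaged 4.06 at the high dose and 5.61 with PBS, differing by -1.55 and -0.87 with detected genes and plate as terms. Of 13 gene symbols on the TGF-beta signalling list 4 were compared. Of these 1, Nrros, which presents TGF-beta on microglia, was called lower, at 1.55 in high-dose and 2.57 in PBS cells. Of 17 immediate early genes, induced rapidly by stimulation or by tissue handling, all were below 0 (median -1.54) and 12 were called lower. Btg2 averaged 3.14 in high-dose and 5.21 in PBS cells. Of 9 proinflammatory cytokines and chemokines, all were below 0 (median -1.02) and 3 were called lower, and of 16 disease-associated microglia genes 10 were below 0 (median -0.43) and 3 were called lower. The differences of Rhob, Lpcat2 and Nrros with detected genes and plate as terms were 0.023, -0.082 and -0.30, so the direction of Rhob did not hold. With the same terms the medians were 0.26 for the 9 homeostatic genes, 0.027 for the other homeostatic genes, -0.14 for the lineage factors, -0.34 for the immediate early genes, -0.068 for the cytokines, -0.098 for the TGF-beta genes, 0.23 for the disease-associated genes and -0.034 for all genes.

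In the low dose minus PBS, 0 of the 22 other homeostatic genes, 0 of the 11 lineage factors and 0 of the 4 TGF-beta genes were called, beside 4.93% of all genes called lower and 0.52% higher, and their medians were -0.23, -0.07 and -0.08. In the high dose minus the low dose, 3 of 22, 3 of 11 and 2 of 4 were called lower, beside 5.66% of all genes. Tgfbr1, a TGF-beta receptor, averaged 1.49 in high-dose and 3.08 in low-dose cells and was one of these. It is on both the homeostatic and the TGF-beta list and so counts in both.

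The 9 genes were high in the same cells more often than single-gene frequencies give. Spearman's rho over 140 cells, with group and plate means taken out of each gene, ran from 0.033 to 0.58 over the 36 pairs, with a median of 0.36. All 11546415 pairs of the 4806 genes had a median of 0.13, and 24 of the 36 pairs lay above their 95th percentile of 0.32. The cells share library depth and the number of detected genes: with detected genes also taken out, the median was 0.28 for the 36 pairs and 0.047 for all pairs, and 22 of 36 lay above the 95th percentile of 0.23. P2ry12 with Selplg had the highest rho, at 0.58, followed by Gpr34 with Tmem119 and Tmem119 with Selplg, both at 0.55. P2ry12 and Tmem119 were both at 10 FPKM or more in 61 cells, against 42.2 if the 2 genes were independent. The neighbouring genes P2ry12 and P2ry13 had a rho of 0.39 and were both at 10 FPKM or more in 51 cells, against 34.9 if independent.

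Fcrls stood apart. Its rho with the mean of the other 8 genes was 0.19, and -0.020 with detected genes taken out, while the other 8 genes had values between 0.44 and 0.66, and between 0.30 and 0.63 with detected genes taken out. Selplg, Tmem119 and P2ry12 followed the remaining genes most closely, at 0.66, 0.66 and 0.62. Cells with at least 3 border macrophage markers, 13 in all, had a mean Fcrls level of 5.91 ± 3.19 on the log2 scale, against 3.296 ± 3.67 in the other 127 cells. The other 8 genes had lower means in these 13 cells, most so Sparc, at 3.70 ± 3.96 against 7.46 ± 3.41, and Tmem119, at 3.37 ± 2.60 against 5.92 ± 3.80. By the share of cells at 10 FPKM or more the order was the other way for Cx3cr1, at 84.6% against 74.8%, and Gpr34, at 53.8% against 48.8%, and nearly equal for Selplg, at 61.5% against 61.4%. These 13 cells had a median of 3643 detected genes, against 2353 in the others, and the part of this in the level of Fcrls was not tested. Fcrls was also higher in the 24 cells with at least 3 Mueller glia markers, at 5.59 ± 3.46 against 3.11 ± 3.61 in the other 116. Those 24 cells had a median of 4703.5 detected genes, against 2243.5, and higher means of the other 8 genes as well.

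Within groups, the pairs were less tightly linked in high-dose cells. The median rho over the 36 pairs was 0.24 in 47 high-dose cells, against 0.42 in 46 PBS cells, and was 0.43 in 47 low-dose cells. In 30 of 36 pairs rho was lower in high-dose than in PBS cells, and in 26 of 36 lower than in low-dose cells. The pairs share genes and cells, so these counts are not independent, and the difference was not tested. P2ry12 with Tmem119 had a rho of 0.20 in high-dose and 0.73 in PBS cells, and 0.59 in low-dose cells. Tmem119 with Gpr34 had 0.28 in high-dose and 0.74 in PBS cells, and 0.68 in low-dose cells. Over all gene pairs the medians were 0.084 in high-dose, 0.15 in PBS and 0.10 in low-dose cells. With detected genes taken out, the median over the 36 pairs was 0.21 in high-dose, 0.31 in PBS and 0.35 in low-dose cells. Leaving out 1 plate at a time gave 0.17 to 0.24 in the high dose, 0.31 to 0.51 in PBS and 0.31 to 0.48 in the low dose. With both detected genes and plate 2 out it was 0.189 in the high dose and 0.191 in PBS, so the gap all but closed there. Without the cells carrying rod markers the median was 0.29 in 35 high-dose and 0.39 in 40 PBS cells. This split by group was chosen after the values were seen.

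**Figure D5:**
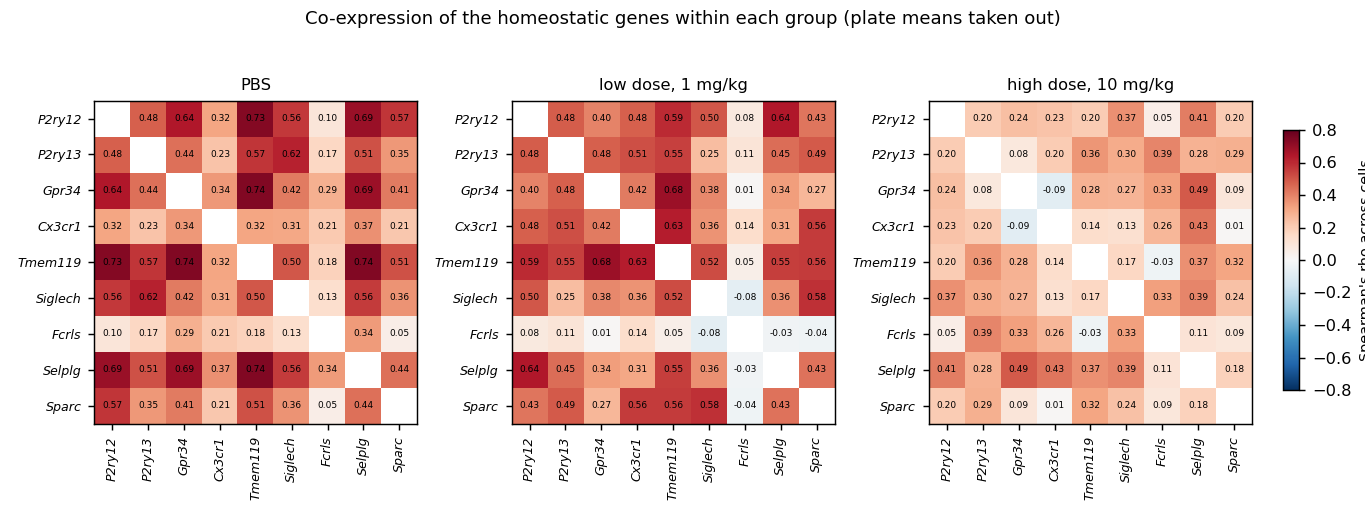
Spearman's rho across cells, plate means taken out, for each pair of the 9 genes in PBS, low-dose and high-dose cells (red positive, blue negative). The high-dose panel is paler, with a median of 0.24 against 0.42 in PBS, and the row of Fcrls is pale in the PBS and low-dose panels.

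The genes whose pattern over the 140 cells was most like the mean of the 9 included other known microglia genes. With group and plate means and detected genes taken out, 3095 named genes had a median rho of 0.073 with that mean. High values were 0.62 for Olfml3, a secreted olfactomedin-like protein known as a microglia marker, and 0.50 for Csf1r, the receptor on which microglia depend for survival. Ctss and Ctsl, lysosomal proteases, had 0.49 and 0.47, F11r, a junctional adhesion molecule, 0.48 and Itgb2, an integrin subunit, 0.45. Daglb at 0.45 and Mir6983 at 0.46 are uncertain, because Daglb shares exon sequence with Rac1 and Mir6983 lies within Csf1r. Among the lists, the 22 other homeostatic genes had a median rho of 0.35, and 21 of them lay above the median of all genes. The 16 disease-associated genes had a median of 0.15 and the 9 cytokines and chemokines 0.13. Also above the median of all genes were 16 of 17 immediate early genes, 13 of 16 disease-associated genes and 9 of 11 lineage factors. The same held for 4 of 4 TGF-beta genes, with a median rho of 0.29, and 5 of 9 cytokines and chemokines. Ctsl, named above, is on the disease-associated list.

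The lowest values were -0.36 for Dcaf1, which shares exon sequence with Manf and Rbm15b and is uncertain, -0.34 for Apoe, a lipoprotein raised in disease-associated microglia, -0.30 for Msr1, a scavenger receptor, -0.28 for Ccl7, a monocyte-attracting chemokine, and -0.27 for Ifitm3, an interferon-induced membrane protein. Without detected genes as a covariate Apoe was at -0.13, while Msr1 was at 0.015 and Ifitm3 at 0.030, so the direction of Msr1 and Ifitm3 did not hold. Without the 13 cells carrying border macrophage markers Apoe was at -0.25 and Olfml3 at 0.58. Gpr84, a fatty acid receptor, named outside the rule after its value was seen, had a rho of 0.39, and 0.27 without those cells.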

How the data were processed

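Single sorted retinal cells were lysed and their RNA was amplified, tagmented and sequenced, per the labels' protocols. The submitters' processing notes list Trim Galore 0.4.4, Trimmomatic 0.36, cutadapt 1.16, STAR 2.7.2b, featureCounts 1.6.1 and the builds GRCm38.p6 and mm10. The authors deposited 1 table of FPKM values per gene and cell, without counts; whether strand was used in counting is not given in the sources used here. Gene positions in the table were the same as in GENCODE M21 for all 9 genes. Reads per cell were estimated from the value that 1 read gives. Analysis used Python 3.11.15, numpy 2.4.6, pandas 2.3.3 and scipy 1.17.1, and was checked on simulated data.

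Means were taken on log2(FPKM + 1), with a pseudocount of 1. Shares used exact Clopper-Pearson intervals, which cover counting error only. Adjusted differences come from a linear fit with log2 of detected genes and plate as terms. The genes named beside the 9 are the 10 most and 5 least like their mean, and for each list up to 4 members by highest level and largest difference; some of these are not reported here. The members, lists and rules were chosen with earlier results of these data known. Alternatives were the pseudocount, detection threshold, cell and gene filters, leaving out each plate and marker-bearing cells, and thinning to 300000 reads. 4 cells under 1000 detected genes were left out.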

Additional observations from a re-analysis of the deposited data

How the results depend on the processing

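The median difference of the 9 genes in the high dose minus PBS, -0.57, was 0.063 as a log2 ratio of mean FPKM and 0.26 with detected genes and plate as terms, and between -0.76 and -0.052 without 1 plate. In the low dose minus PBS, 0.11, it was 0.65 with those terms and 0.61 with a minimum of 2000 detected genes, and without plate 2 it was -0.40. In the high dose minus the low dose, -0.41, no alternative moved it by more than the spread between plates. That spread, 0.68, was larger than the value itself. The value was 0.020 as a log2 ratio of mean FPKM, -0.12 with detected genes and plate as terms, and 0.35 on plate 1. The mean number of genes per cell in the high dose minus PBS was -0.27 at 1 FPKM and -0.86 at 10 FPKM, and 0.19 and 0.33 with detected genes and plate as terms. In the low dose minus PBS it was -0.31, and 0.0037 at any FPKM above 0, -0.023 with detected genes and plate as terms and 0.24 with a minimum of 2000 detected genes. Among called differences of the 9 genes, that of Fcrls in the high dose minus PBS reversed in sign. It was 0.24 with those terms and 0.068 with a minimum of 2000 detected genes. Gpr34 in the high dose minus the low dose also reversed (0.47 as a log2 ratio of mean FPKM). The likeness of Msr1 (0.015) and Ifitm3 (0.030) reversed with no covariate. Genes that were not called changed sign as well. In the high dose minus PBS, P2ry13, Gpr34, Cx3cr1, Tmem119, Siglech and Selplg turned positive with those terms, while P2ry12 and Sparc stayed negative. As a log2 ratio of mean FPKM, all except Fcrls, Selplg and Sparc were positive there. The cause of these sign changes was not tested. The median rho over the 36 pairs ran from 0.28 to 0.38 over its alternatives. The share of cells with each gene in each group moved beyond its interval in 27 of 27 cases at 10 FPKM and at any FPKM above 0, and in 0 of 27 when cells were thinned to 300000 reads, a depth that 5 PBS cells, 1 cell with 1 mg/kg and 3 cells with 10 mg/kg did not reach. No paired analysis was possible because no cell is matched to a cell of another group; each plate holds all 3 groups, and the within-plate differences and the fit with plate as a term are given above.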

Other observations

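4 of the 140 cells had 3 or fewer of the 9 genes at 1 FPKM or more. The PBS cell on plate 1 with Tmem119 and Sparc alone had Lyz2 at 50819 FPKM and Apoe at 9892 FPKM among its leading genes. The PBS cell on plate 2 with Gpr34 alone had Lyz2 at 67818 FPKM, against a median of 246 FPKM over the 140 cells, and Csf1r at 290 FPKM. The low-dose cell on plate 1 had C1qa at 635 FPKM, and the high-dose cell on plate 3, with Sparc alone, had Csf1r at 1781 FPKM and C1qa at 3735 FPKM. Lyz2, which encodes lysozyme, was thus very high in the PBS cells of this kind. It was at 1865 FPKM in the low-dose one and at 0.498 FPKM in the high-dose one.

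Cells with at least 3 neutrophil markers, 14 in all, came from each group (4 PBS, 5 low-dose and 5 high-dose cells) and S100a8, S100a9 and Retnlg were the list's most frequent markers, at 1 FPKM or more in 42, 36 and 18 of the 140 cells. Elane and Camp reached that level in 0 cells. Their levels of the 9 genes lay near those of the other 126 cells: P2ry12 averaged 4.41 ± 3.43 in them and 4.80 ± 3.67 in the others, and Tmem119 5.66 ± 3.66 in them and 5.68 ± 3.79 in the others. Siglech, at 3.87 ± 3.34 in them and 5.06 ± 3.58 in the others, and Sparc, at 5.92 ± 2.86 and 7.24 ± 3.68 in the same order, differed most, by less than 1 SD.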
